A study of Mus musculus with 8 samples.

Results

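The comparison of 2 libraries labelled AXBP1 with 2 labelled WT covered every gene of the count table. These are 4 of the 8 libraries of the series, and the genes tested were 15580 of 48526 listed, those with a mean of more than 20 scaled counts over the 8 libraries. Every library came from a pool of 5 neuro-intermediate lobes of the pituitary of C57B6 mice, taken from males at 3 months of age. AXBP1 mice expressed an acidic dominant negative form of XBP1 from the rat Pomc promoter, which is active in POMC cells. Which transgenic line gave the pools is not given in the sources used here. ACreb3l2 mice expressed the same kind of protein against Creb3l2 from the same promoter, and ACreb3l2/AXBP1 mice carried both transgenes, so that group set against ACreb3l2 measured the AXBP1 transgene a second time, in libraries that the first comparison did not use. The labels call the samples melanotropes, but the lobes were dissected whole, and p-values measure the spread between pools, which may be partly technical.

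Melanotropes make the hormone precursor POMC and cleave it to melanocyte-stimulating hormone, and their endoplasmic reticulum (ER) is built for a high load of secreted protein. XBP1 is the transcription factor of the IRE1 branch of the unfolded protein response: IRE1 splices its mRNA, and the spliced form drives genes for protein entry into the ER, folding, glycosylation and disposal. A parallel branch runs from the kinase PERK through ATF4, which drives genes for amino acid synthesis, uptake and tRNA charging, and for the stress regulators Ddit3 and Trib3. In bulk RNA of this kind, fewer cells of a type and less RNA per cell cannot be told apart.

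Total counts were 33878050 and 32644110 in the WT libraries and 32769632 and 28785010 in the AXBP1 libraries. The targeted gene was examined first. Xbp1 (mm10 chromosome 11, 5520659 to 5525893) stood at 11860.1 and 13417 normalized counts in WT and at 12431 and 13831 in the libraries labelled AXBP1. The groups overlapped, and the log2 difference was 0.06 (SE 0.139, edgeR adjusted p = 0.900). A dominant negative protein acts on the XBP1 protein and need not lower this mRNA. The transgene does hold part of it, however: the primers used to build it enclose 869 of the 2129 bases of the main Xbp1 transcript, or 40.8%, from exon 2 to exon 5. The stretch begins on chromosome 11 at 5521990 with the bases shown here, which lie in exon 2.

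Xbp1 stretch in the transgene, first bases: gagcagcaagtggtggatttggaa

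Reads from a strongly expressed transgene would therefore be counted on Xbp1 if they were aligned, and no such excess was measured in AXBP1 against WT. In libraries with the ACreb3l2 background Xbp1 was at 9142 and 9192 normalized counts without AXBP1 and at 17615 and 12836 with it, and these groups did not overlap (log2 difference 0.73, SE 0.140, edgeR adjusted p = 0.559). The transgenic lines were selected by RT-qPCR for transgene mRNA well above the endogenous mRNA, a measure that is not part of the files used here. The Xbp1 counts alone did not settle the label in either direction, and every direction below is one between libraries labelled AXBP1 and libraries labelled WT.

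The tissue was checked by its markers. Pomc took 10.5% and 14.6% of counts in WT and 9.77% and 11.2% in AXBP1, and 7 of 8 melanotrope markers passed the filter, with summed levels of 113409 and 155181 CPM (counts scaled to an equal library size) in WT and 105199 and 120119 in AXBP1. Those sums are mostly Pomc. By gene, 6 of the 7 were lower in AXBP1, 3 at an unadjusted p under 0.05 (edgeR), with a median log2 difference of -0.33 that was -0.01 without WT replicate 2. For scale, 5.68% of all genes tested were lower at that level and 4.29% higher, and in 23.8% and 22.3% the 2 groups did not overlap, lower and higher. The eighth, Crhr2, had at most 3 counts in a library. Other cells of the lobe were present in all libraries. Pituicyte and astroglial markers summed to 1264 to 1902 CPM in WT and 1758 to 2254 in AXBP1, macrophage markers to 369.9 to 439 and 400.5 to 441, and fibroblast and pericyte markers to 739.6 to 1039 and 1031 to 1226, so these ranges overlapped. By gene, fibroblast and pericyte markers were higher in AXBP1 in 9 of 10 (median 0.26, from 0.13 to 0.52 with 1 library left out), 2 at an unadjusted p under 0.05 (4.29% of all genes) and 4 without overlap (22.3% of all genes), and pituicyte markers in 7 of 10 (median 0.19, or 0.05 without WT replicate 2). The part of these shifts between cell types in the gene groups below was not tested. Markers of hypothalamic axons and erythroid cells overlapped as well. Summed stem cell markers did not, at 588 and 585.6 CPM in WT and 468 and 513 in AXBP1, but 3 of the 5 were higher and 2 lower, each without overlap (median log2 difference 0.14). Endothelial markers did not overlap, at 159.5 and 216.5 CPM in WT and 232 and 298 in AXBP1, and neither did those of anterior lobe hormone cells, at 4746 and 6503 CPM in WT and 2495 and 2549.6 in AXBP1. Gh, growth hormone, made up 61.7% to 84.7% of these anterior lobe sums. The other 9 markers summed to 1221 and 997 CPM in WT and to 957 and 632 in AXBP1, still without overlap but with less distance between the groups. By gene, 7 of the 10 were lower, 4 of them without overlap, and 3 higher, 2 without overlap, with a median log2 difference of -0.32, or -0.13 without AXBP1 replicate 1.

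**Figure D1:**
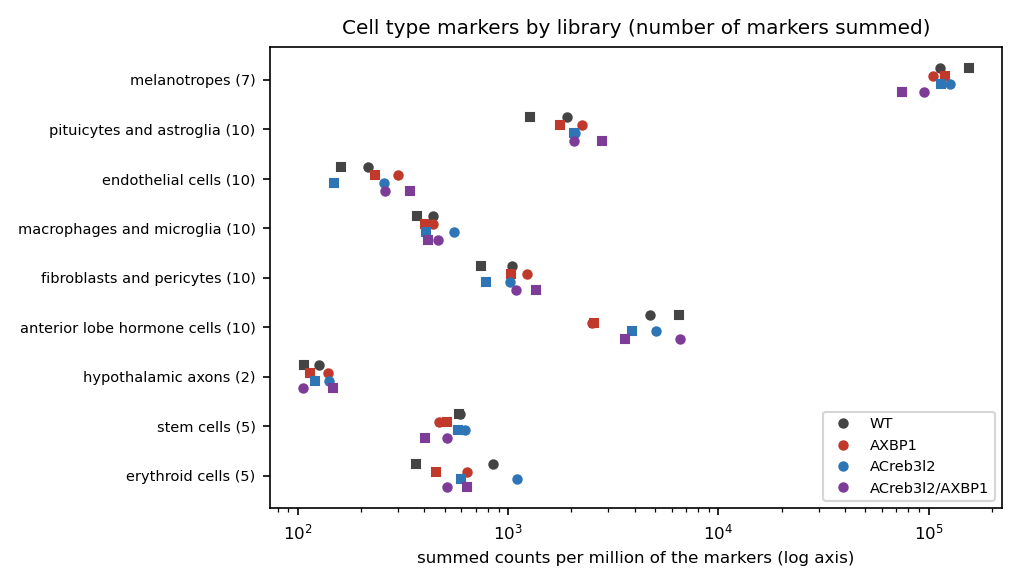
Summed CPM of the tested markers of each cell type (log axis), with 1 point per library (circle, replicate 1; square, replicate 2) coloured by group. Melanotrope markers lay between 105199 and 155181 in these 4 libraries, and the 2 AXBP1 libraries lay below both WT libraries for anterior lobe hormone cells, at 2495 and 2549.6 against 4746 and 6503.

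The promoters of the 3 genes with the lowest p among 181 tested genes of ER and ER-to-Golgi transport, and that of Xbp1 itself, are shown as the 250 bases before the start site, 5′ to 3′ on the gene's strand (RefSeq start sites, build GRCm38.p6). They are Serp1, a small protein of the translocation channel (chr3:58525885-58526134, minus strand), Dnajb9, a J-domain partner of the chaperone BiP (chr12:44210069-44210318, minus strand), Magt1, a subunit of the oligosaccharyl transferase (chrX:106011803-106012052, minus strand), and Xbp1 (chr11:5520391-5520640, plus strand). Capitals mark matches, on either strand, to ACGT, the core of sites bound by XBP1 and its relatives, and to CCACG, the 3′ part of the ER stress element. They also mark ACGTGG, which contains ACGT and overlaps CCACG on the other strand, and TGACGT, which contains ACGT.

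Serp1: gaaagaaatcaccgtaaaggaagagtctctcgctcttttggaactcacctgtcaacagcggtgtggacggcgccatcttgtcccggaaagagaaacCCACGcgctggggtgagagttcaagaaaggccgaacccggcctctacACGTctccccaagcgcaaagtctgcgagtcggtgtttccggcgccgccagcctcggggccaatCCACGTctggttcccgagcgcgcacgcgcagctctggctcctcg

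Dnajb9: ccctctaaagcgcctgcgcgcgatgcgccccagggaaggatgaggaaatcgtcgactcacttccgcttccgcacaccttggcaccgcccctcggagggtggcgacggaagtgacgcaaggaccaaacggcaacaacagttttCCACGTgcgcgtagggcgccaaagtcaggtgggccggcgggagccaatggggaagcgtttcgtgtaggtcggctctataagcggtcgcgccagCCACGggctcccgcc

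Magt1: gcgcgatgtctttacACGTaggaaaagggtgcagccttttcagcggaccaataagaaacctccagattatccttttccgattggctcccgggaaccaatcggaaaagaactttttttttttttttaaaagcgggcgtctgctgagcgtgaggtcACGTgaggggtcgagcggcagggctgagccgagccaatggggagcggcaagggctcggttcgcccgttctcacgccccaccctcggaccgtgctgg

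Xbp1: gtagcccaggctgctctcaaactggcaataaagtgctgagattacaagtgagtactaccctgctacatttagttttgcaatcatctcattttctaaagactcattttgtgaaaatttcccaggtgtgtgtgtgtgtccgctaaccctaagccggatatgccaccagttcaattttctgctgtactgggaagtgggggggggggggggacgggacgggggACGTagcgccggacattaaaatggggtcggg

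ACGTGG was found in the windows of Serp1 and Dnajb9, 39 to 44 and 103 to 108 bases before the start site, and not in those of Magt1 and Xbp1, which held ACGT. The whole ER stress element, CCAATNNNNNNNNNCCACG, was in none of the 4 windows. Among 32851 promoters of this length ACGTGG was in 6.91%, CCACG in 28.3%, ACGT in 26.9%, TGACGT in 6.47% and the whole element in 0.113% (37 promoters). Among 14317 promoters of the tested genes the shares were 9.05%, 40.3%, 33.5%, 9.36% and 0.105%. In 161 promoters of 142 of the 181 ER and ER-to-Golgi genes they were 24.2%, 52.2%, 51.6%, 18.0% and 6.21%. In the 42 promoters of those lower in AXBP1 at an unadjusted p under 0.05 they were 28.6%, 54.8%, 57.1%, 19.0% and 7.14%. A match describes the sequence and not binding.

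Over all 15580 genes, edgeR called none at an adjusted p under 0.05 (0%). Its lowest adjusted p, 0.0769, was shared by 4 genes, all lower in AXBP1: Trib3, Aldh1l2, Lcn2 and Atf4. At an unadjusted p under 0.05, 885 genes (5.68%) were lower and 669 (4.29%) higher. This split turned with the scaling, to 536 lower and 852 higher when libraries were scaled by their total counts alone, where the median of all genes moved from 0.00 to 0.06, and to 432 lower and 546 higher without AXBP1 replicate 2. DESeq2, run as an alternative, gave 79 genes at an adjusted p under 0.05, of which 60 were lower (0.426% of 14069 with an adjusted p) and 19 higher (0.135%). Of the 79, 10 were not protein coding, among them Rn18s-rs5, Gm42418, Gm23935, Gm24270, Gm3375 and Rprl3, which were all higher. Libraries of the 2 groups did not overlap in 3710 genes that were lower (23.8%) and in 3481 that were higher (22.3%). Below, a gene is said to have passed only with the DESeq2 test, and edgeR values stand beside it for the main genes. The counting strand is not stated, so the counts of genes that overlap another are uncertain. Besides those marked as such, Psph, Cars, Eif2ak3, Pdia6, Syt4, Pam, Junb, Gls2, C2cd4b, Col20a1, Egfl7, Rpph1, Rn18s-rs5 and Gm42418 overlap another gene.

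**Figure D2:**
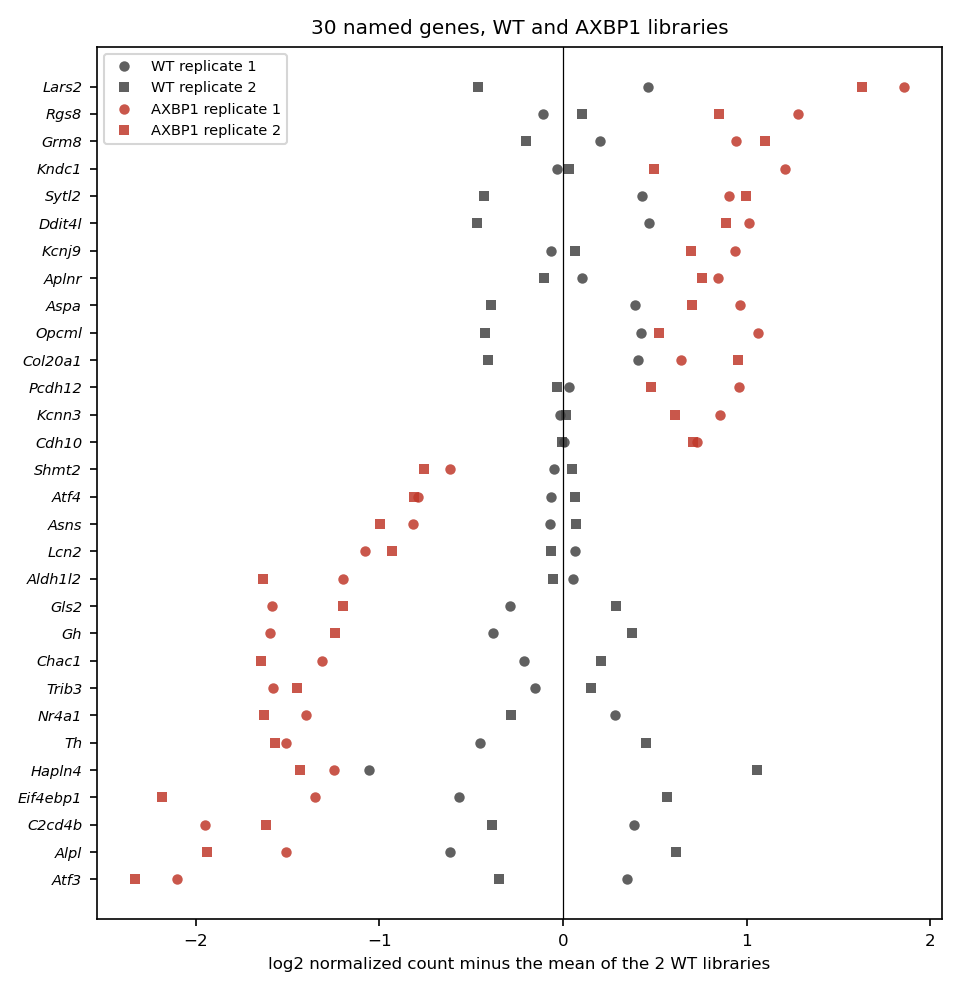
The 30 genes with the largest differences or lowest p among 1314 protein-coding genes with separate groups. Each point is 1 library, as log2 normalized count minus the WT mean (grey, WT; red, AXBP1; circles, replicate 1; squares, replicate 2). The AXBP1 points lie on 1 side of both WT points in every row, as the choice of genes requires, and the WT spread is widest for Hapln4.

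Genes of the PERK-ATF4 arm, the stress branch parallel to that of XBP1, were mostly lower in AXBP1. Of its 14 members, all tested, 13 were lower in AXBP1, 10 of them at an unadjusted p under 0.05, where 5.68% of all genes lay, and 7 with DESeq2, and none was higher at that level. The median log2 difference was -0.58, with 0.00 over all genes. Atf4 itself (chromosome 15, 80255184 to 80257541) stood at 7718 and 8423 normalized counts in WT and at 4669 and 4598 in AXBP1. Both AXBP1 libraries were lower than both WT libraries, with means of 8071 ± 499 (SD, n = 2) and 4634 ± 49.9 (SD, n = 2). The log2 difference was -0.80 (SE 0.106, edgeR adjusted p = 0.0769, DESeq2 adjusted p = 2.19e-08).

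Trib3, a pseudokinase induced by ATF4 and CHOP (chromosome 2, 152337422 to 152344032), stood at 385 and 476 normalized counts in WT and at 143 and 157 in AXBP1. It was 2.87-fold lower (log2 difference -1.52, SE 0.172, edgeR adjusted p = 0.0769, DESeq2 adjusted p = 8.33e-08). Chac1, which degrades glutathione, had 1089 and 1457 in WT and 507 and 404 in AXBP1 (log2 difference -1.48, SE 0.248, edgeR adjusted p = 0.309, DESeq2 adjusted p = 2.19e-08). In both genes the 2 AXBP1 libraries were far below the WT pair.

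Sesn2, a stress-induced inhibitor of mTORC1, stood at 1372 and 1956 normalized counts in WT and at 965 and 792 in AXBP1 (log2 difference -0.92, edgeR adjusted p = 0.309, DESeq2 adjusted p = 6.13e-05). Ddit3, which encodes CHOP, had 1083 and 1222 in WT and 799 and 728 in AXBP1 (log2 difference -0.59, DESeq2 adjusted p = 0.00903), but it overlaps other genes on both strands and its counts are uncertain. Ppp1r15a, the phosphatase subunit that ends the PERK signal, was lower by 0.56 and Cebpb, a partner of ATF4, by 0.69 on the log2 scale (DESeq2 adjusted p = 0.0487 and 0.0319), and each shares its position with a gene on the other strand. The kinase PERK itself, Eif2ak3, stood at 2798 and 3103 normalized counts in WT and at 2855 and 2834 in AXBP1, with overlapping groups and a log2 difference of -0.05 (SE 0.0893).

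**Figure D3:**
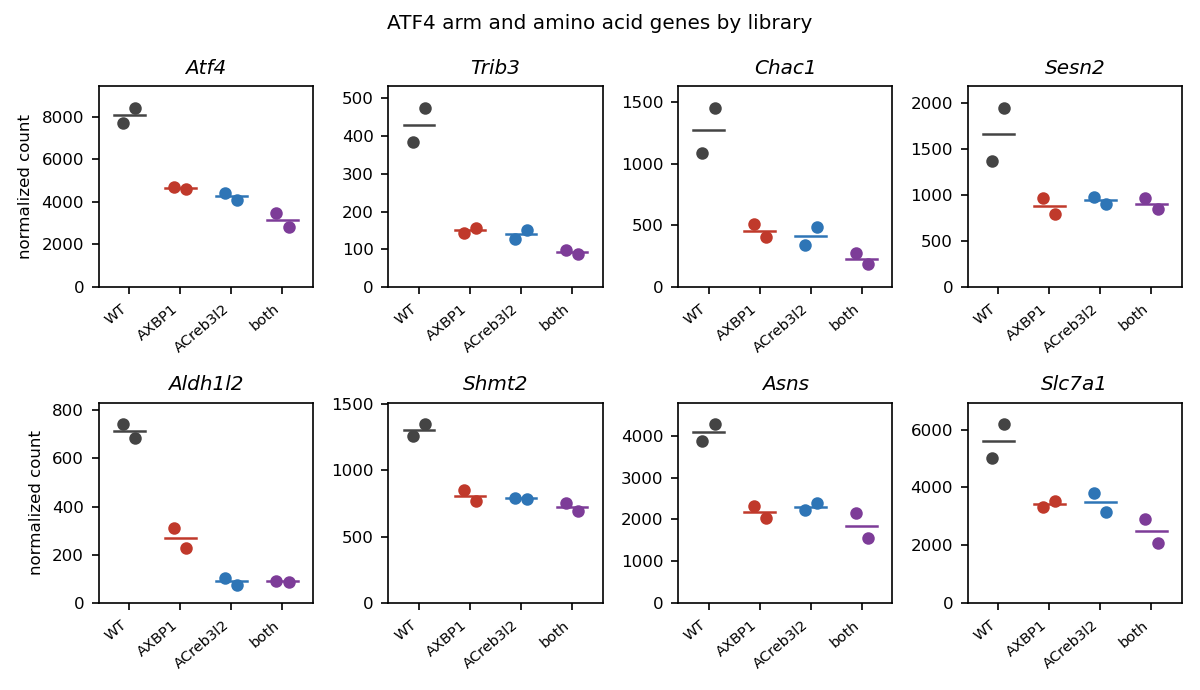
Normalized counts of 8 genes of the ATF4 arm and of amino acid metabolism, with 1 point per library, a line at the mean of each group, and the axes starting at 0 ("both" is ACreb3l2/AXBP1). The AXBP1 points lie below the WT points in all 8 panels, at 4669 and 4598 against 7718 and 8423 for Atf4.

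Enzymes of serine, one-carbon and proline synthesis were lower as well. Of 19 members, 17 were lower, 10 at an unadjusted p under 0.05 and 6 with DESeq2, and the median log2 difference was -0.40. Without WT replicate 2 the median was -0.18. Aldh1l2, the mitochondrial enzyme that oxidises formyl-tetrahydrofolate (chromosome 10, 83487450 to 83534140), stood at 741 and 685 normalized counts in WT and at 311 and 229 in AXBP1. The groups were well apart, with a log2 difference of -1.40 (SE 0.179, edgeR adjusted p = 0.0769, DESeq2 adjusted p = 8.33e-08), although the gene overlaps another on the opposite strand. Asns, asparagine synthetase, had 3872 and 4275 in WT and 2312 and 2035 in AXBP1 (log2 difference -0.91, SE 0.142, DESeq2 adjusted p = 5.32e-07). Shmt2, the mitochondrial serine hydroxymethyltransferase, had 1256 and 1348 in WT and 849 and 769 in AXBP1 (log2 difference -0.69, SE 0.0986, DESeq2 adjusted p = 0.000189), and overlaps a gene on the opposite strand.

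The mitochondrial folate enzyme Mthfd2 spread more in WT, at 1989 and 3190.0 normalized counts, and had 1541 and 1087 in AXBP1 (log2 difference -0.98, or -0.60 without WT replicate 2, edgeR adjusted p = 0.474, DESeq2 adjusted p = 0.000407). Psph and Psat1, later steps of serine synthesis, were lower by 0.64 and 0.48 on the log2 scale (DESeq2 adjusted p = 0.0164 and 0.0472), and for Psat1 the difference was -0.30 without AXBP1 replicate 2. Phgdh, the first step, had 857 and 1347 in WT and 883 and 803 in AXBP1, so its groups overlapped. Without WT replicate 2 its log2 difference was -0.02.

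Amino acid transporters were lower in 14 of 19 members, with 4 at an unadjusted p under 0.05, and their median log2 difference of -0.12 was -0.06 without WT replicate 2. The cationic amino acid carrier Slc7a1 stood at 5010.0 and 6189 normalized counts in WT and at 3321 and 3533 in AXBP1 (log2 difference -0.71, SE 0.170, edgeR adjusted p = 0.474, DESeq2 adjusted p = 0.00267). The glutamine carrier Slc38a1 had 11914 and 12269 in WT and 8209 and 9232 in AXBP1 (log2 difference -0.47, DESeq2 adjusted p = 0.0326). Slc3a2 and Slc7a5, the paired chains of the large neutral carrier, differed by -0.45 and -0.91 and did not pass (DESeq2 adjusted p = 0.138 and 0.394).

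Of 42 aminoacyl tRNA synthetase genes tested, a list given with the study, 33 were lower. At an unadjusted p under 0.05 (edgeR) 10 were lower (23.8%, and 5.68% of all genes) and 2 higher (4.76%, and 4.29%). With DESeq2 2 passed as lower and 1 as higher, and the median of -0.14 was -0.09 without WT replicate 2. Gars, the glycyl enzyme, stood at 4803 and 5339 normalized counts in WT and at 3722 and 3353 in AXBP1 (log2 difference -0.52, DESeq2 adjusted p = 0.00842), and Cars passed as well (-0.62, or -0.34 without WT replicate 2). Tars and Sars differed by -0.45 and -0.44 and did not pass. Lars2, the mitochondrial leucyl enzyme, went the other way, with 1988 and 1049 in WT and 5225 and 4471 in AXBP1 (log2 difference 1.67, SE 0.378, edgeR adjusted p = 0.474, DESeq2 adjusted p = 0.0232). Ribosomal RNA loci, looked at after this value was seen, were higher in the same libraries: Rn18s-rs5 stood at 189231 and 90128 normalized counts in WT and at 664261 and 536903 in AXBP1, and Gm42418 had 24113 and 25656 in WT and 61369 and 53039 in AXBP1. Gm42418 lies within Rn18s-rs5 on chromosome 17, so these are counts of 1 stretch of the genome. The labels state that ribosomal RNA was depleted, while the methods name a stranded mRNA kit, and the sources used here do not settle how such counts entered the libraries. Their part in the Lars2 value was not tested.

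CARE elements, the composite sites of ATF4 and its partners, were looked for after these values were seen, as TGATGNAA on either strand. They were in 3.45% of all promoters and in 1.97% of 14317 promoters of the tested genes. Of 81 promoters of genes of the 4 lists above, 9 held one (11.1%). Of 28 promoters of those that were lower at an unadjusted p under 0.05 (edgeR), a set chosen by these same data, 6 did (21.4%). The 30 bases around the match are shown for Chac1 (chr2:119351038-119351067, plus strand) and Asns (chr6:7693214-7693243, minus strand), with the letters of the motif in capitals. No match lay in the window of Trib3.

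Chac1: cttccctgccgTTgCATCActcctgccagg

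Asns: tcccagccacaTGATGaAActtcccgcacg

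Lcn2 and Eif4ebp1 were lower outside these lists. Lcn2, a secreted siderophore-binding protein (chromosome 2, 32384633 to 32388252), stood at 4452 and 4055 normalized counts in WT and at 2016 and 2226 in AXBP1, a 2.01-fold lower mean (SE 0.129 on the log2 scale, edgeR adjusted p = 0.0769, DESeq2 adjusted p = 1.85e-09). Eif4ebp1, a repressor of cap-dependent translation, had 308 and 675 in WT and 179 and 100.3 in AXBP1 (log2 difference -1.81, SE 0.415, edgeR adjusted p = 0.474, DESeq2 adjusted p = 5.81e-05). Its WT libraries differed by more than 2-fold, and without WT replicate 2 the log2 difference was -1.14.

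Genes nearest to XBP1's known role were mostly lower by small amounts. Of 181 tested ER and ER-to-Golgi genes in 8 lists, 154 were lower in AXBP1. At an unadjusted p under 0.05 (edgeR) 53 were lower (29.3%, and 5.68% of all genes) and 1 higher (0.552%, and 4.29%). By list the lower share ran from 21.1% for disulfide isomerases to 48.0% for ER translocation and signal peptidase. Housekeeping lists, given below, reached 20.3%. With DESeq2 4 genes were lower: Serp1, Mogs, Dnajb9 and Manf. The median log2 difference was -0.15, and without WT replicate 1 or 2 it was -0.22 or -0.10. All 25 tested genes of ER translocation and signal peptidase were lower, 12 of them at an unadjusted p under 0.05, with a median of -0.20. Among chaperones 20 of 25 were lower, 8 at that level and 1 higher, also with a median of -0.20, which was -0.09 without WT replicate 2.

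Serp1 (chromosome 3, 58519817 to 58525892), which overlaps a gene on the opposite strand, stood at 7572 and 7769.8 normalized counts in WT and at 5912 and 5871 in AXBP1. Replicates were close and the groups were apart (log2 difference -0.38, SE 0.0769, edgeR adjusted p = 0.376, DESeq2 adjusted p = 0.0164). Sec61b, a subunit of the translocation channel, had 3037 and 3510.2 in WT and 2456 and 2442 in AXBP1 (log2 difference -0.42, DESeq2 adjusted p = 0.106). Dnajb9, a known XBP1 target (chromosome 12, 44205559 to 44210326), had 3419 and 3595 in WT and 2565 and 2765 in AXBP1 (log2 difference -0.40, SE 0.0859, edgeR adjusted p = 0.399, DESeq2 adjusted p = 0.0464), and overlaps a gene on the opposite strand.

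Manf, a secreted ER stress protein, stood at 5924 and 7683 normalized counts in WT and at 4686 and 4740.1 in AXBP1 (log2 difference -0.53, or -0.33 without WT replicate 2, DESeq2 adjusted p = 0.0418), with overlapping genes on both strands. Creld2 had 3359 and 4258 in WT and 2683 and 2703 in AXBP1 (log2 difference -0.50, DESeq2 adjusted p = 0.0683). The main luminal chaperone BiP, Hspa5, had 72417 and 82172 in WT and 61407 and 64824 in AXBP1, which did not overlap, with a log2 difference of -0.29 (SE 0.144, edgeR adjusted p = 0.527). Its relative Hyou1 differed by -0.47 and its cofactor Sdf2l1 by -0.38, and neither passed.

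**Figure D4:**
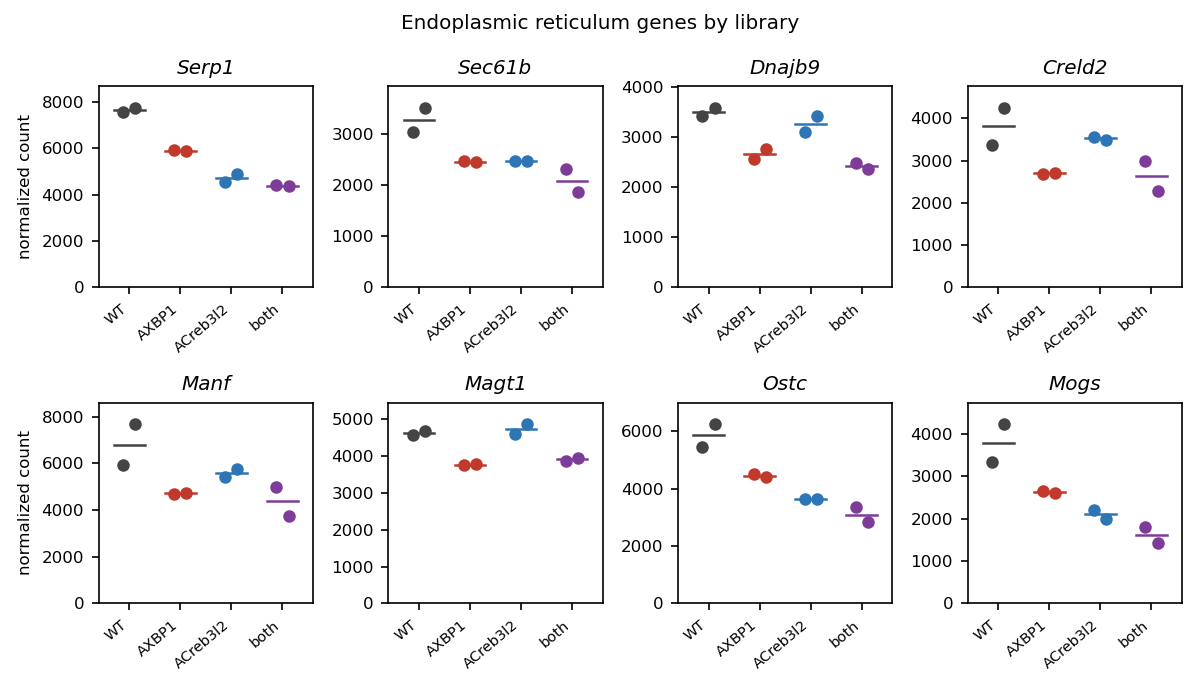
Normalized counts of 8 ER genes by library, drawn as in the plot of ATF4 genes with axes starting at 0. The AXBP1 points lie below the WT points in all 8 panels, at 5912 and 5871 against 7572 and 7769.8 for Serp1.

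N-linked glycosylation genes were lower in 28 of 37 (median log2 difference -0.12), 9 of which had an unadjusted p under 0.05. Mogs, the first glucosidase that trims the glycan, stood at 3343 and 4228 normalized counts in WT and at 2646 and 2595 in AXBP1 (log2 difference -0.53, or -0.35 without WT replicate 2, DESeq2 adjusted p = 0.0373). Magt1 had 4580.3 and 4686 in WT and 3757 and 3772 in AXBP1, a small difference with close replicates (log2 difference -0.30, SE 0.0752, DESeq2 adjusted p = 0.145). Ostc, another subunit of the transferase, differed by -0.39. Of 19 disulfide isomerases 16 were lower (median -0.18), 4 at that level, led by Erp44 at -0.29 and Pdia6 at -0.40.

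Genes of ER-associated degradation were lower in 23 of 28 (median -0.12), 7 at an unadjusted p under 0.05, and none passed DESeq2. Selk and Herpud1 differed by -0.30 and -0.26, and Edem1, an established XBP1 target, by -0.16. The COPII coat, which buds vesicles from the ER, was lower in 15 of 16 genes (median -0.16), the COPI coat in 8 of 9 (median -0.18) and cargo receptors in 19 of 22 (median -0.20). Of these 47 genes 13 were lower at that level. Without WT replicate 2 the medians were -0.06 for N-linked glycosylation, -0.12 for disulfide isomerases, -0.07 for degradation, -0.10 for each coat and -0.09 for cargo receptors. Ern1, which encodes IRE1, stood at 3712 and 4595 normalized counts in WT and at 2975 and 3173 in AXBP1 (log2 difference -0.43, SE 0.110, DESeq2 adjusted p = 0.0674).

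Substrates of IRE1-dependent decay, which an active IRE1 cuts in the absence of XBP1, showed a median of -0.05 over 7 genes with none lower and 1 higher, Col6a1, at an unadjusted p under 0.05. Phospholipid synthesis genes, another class driven by XBP1 in secretory cells, had a median of -0.03 over 27, with 1 lower and 1 higher at that level. Cholesterol synthesis had a median of -0.03 over 23, with 3 lower, among them Msmo1 at -0.39. Lysosomal genes had a median of -0.01 over 30, with 0 in either direction. These 4 medians turned positive when libraries were scaled by total counts alone, and the first 3 also when 1 WT library was left out.

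**Figure D5:**
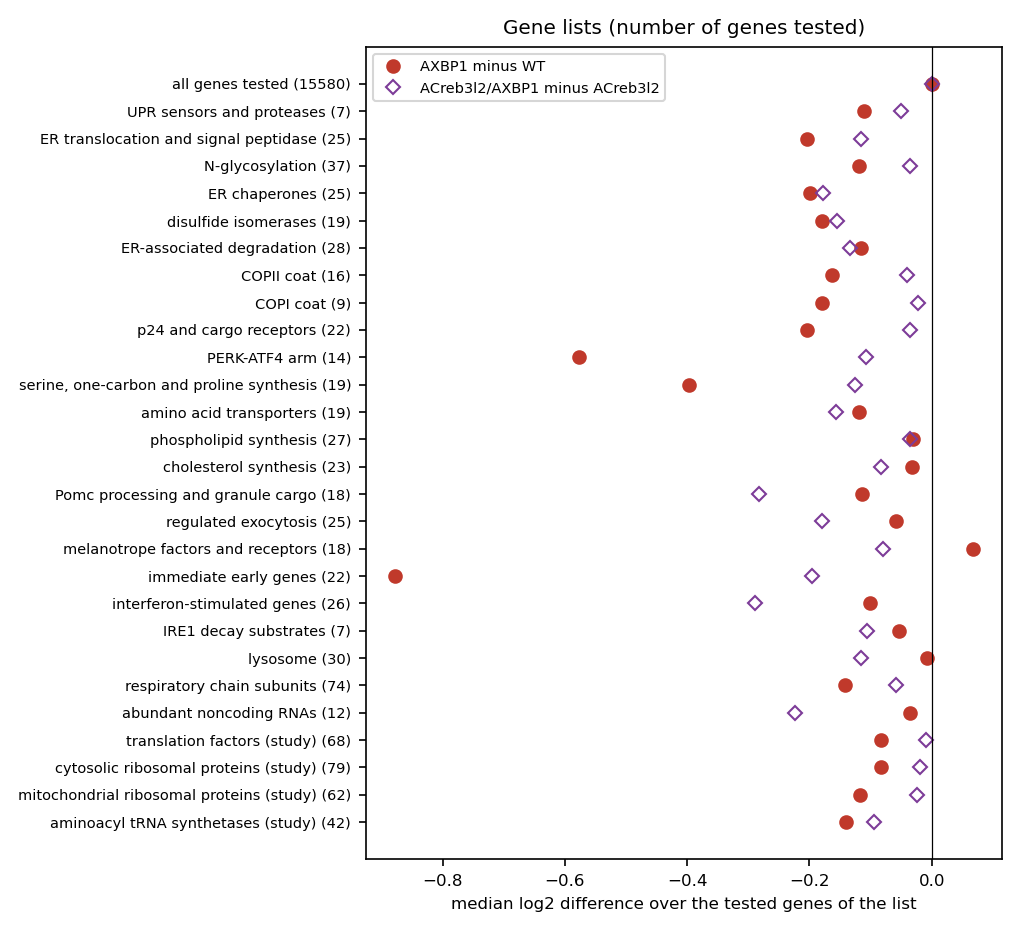
Median log2 difference over the tested genes of each list (number tested in brackets), for AXBP1 minus WT (red circles) and ACreb3l2/AXBP1 minus ACreb3l2 (open diamonds), which share no library. The line marks 0, next to which the medians of all genes lie, and the ATF4 arm and the immediate early genes lie farthest to the left for AXBP1, at -0.58 and -0.88.

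Housekeeping lists were also slightly lower, so that small medians are read against them. Respiratory chain subunits were lower in 72 of 74 (median -0.14), with 15 (20.3%) at an unadjusted p under 0.05 (edgeR). Mitochondrial ribosomal proteins were lower in 54 of 62 (median -0.12), 12 (19.4%) at that level. Cytosolic ribosomal proteins were lower in 70 of 79 (median -0.08, and -0.02 without WT replicate 2), 5 (6.33%) at that level. Translation factors were lower in 47 of 68, 13 (19.1%) at that level, with a median of -0.08. The last 3 lists came with the study. Atp5d, an ATP synthase subunit that overlaps a gene on the opposite strand, stood at 6063 and 6339.8 normalized counts in WT and at 3864 and 4209 in AXBP1 and was the respiratory gene that passed (log2 difference -0.62, DESeq2 adjusted p = 0.00765).

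Melanotrope factors and receptors, 18 genes, had a median log2 difference of 0.07, with 10 higher and 8 lower. Nr4a1, Tbx19 and Creb3l2 were among those lower at an unadjusted p under 0.05, and Oprl1, the nociceptin receptor, was the 1 higher at that level (log2 difference 0.92, SE 0.275, edgeR adjusted p = 0.474). The median was negative on the scale of FPKM, fragments per kilobase scaled to depth, and when WT replicate 1 or AXBP1 replicate 1 was left out. Tbx19 (Tpit), the factor that specifies POMC cells, stood at 21306 and 23073 normalized counts in WT and at 13827 and 14976 in AXBP1 (log2 difference -0.62, SE 0.185, DESeq2 adjusted p = 0.0185). Creb3l2 had 28642 and 28156 in WT and 18810.3 and 22801 in AXBP1 (log2 difference -0.45, SE 0.175, edgeR adjusted p = 0.492). Pcsk1, the convertase that makes the first cuts in POMC, had 13449 and 13099 in WT and 8261 and 8663 in AXBP1, without overlap, and did not pass (log2 difference -0.65, SE 0.246, edgeR adjusted p = 0.495). Pomc did not separate the groups by normalized count (log2 difference -0.33, SE 0.251, or -0.01 without WT replicate 2). Of 18 genes of POMC processing and granule cargo, 14 were lower and 3 at that level, Scg2, Pcsk1 and Pam, but the median of -0.11 was 0.01 without WT replicate 2. In regulated exocytosis Syt4 was lower (log2 difference -0.58, DESeq2 adjusted p = 0.0160) and Cplx2 higher (0.42, DESeq2 adjusted p = 0.106).

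Immediate early genes, which respond to stimulation or handling within minutes, were lower in 21 of 22, with a median log2 difference of -0.88, but only 5 had an unadjusted p under 0.05. Nr4a1, an orphan nuclear receptor, stood at 17409.5 and 11737 normalized counts in WT and at 5416 and 4624 in AXBP1 (log2 difference -1.54, SE 0.367, edgeR adjusted p = 0.474, DESeq2 adjusted p = 0.0410). Atf3 had 745 and 461 in WT and 136 and 116 in AXBP1 (log2 difference -2.25, SE 0.663, DESeq2 adjusted p = 0.115). Junb had 18396 and 6685 in WT and 2718 and 4154 in AXBP1, so the WT pools themselves differed by more than 2-fold. The median of the list was -0.42 without WT replicate 1 and -1.14 without WT replicate 2. In the ACreb3l2 libraries Atf3 was at 620.1 and 163, so pools of 1 genotype also stood far apart. Whether handling of the tissue had a part was not tested.

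Other lower genes had large fold differences and wide spread. Alpl, alkaline phosphatase, stood at 651 and 1532 normalized counts in WT and at 350.4 and 261 in AXBP1 (log2 difference -1.83, or -1.09 without WT replicate 2, DESeq2 adjusted p = 0.0384). Th, the tyrosine hydroxylase of dopamine synthesis, had 242 and 454 in WT and 116 and 112 in AXBP1, Gls2, a glutaminase, 584 and 869 against 238 and 310.2, and C2cd4b 499 and 292 against 98.7 and 125. None of these 3 passed. Hapln4, a hyaluronan link protein, had 105 and 453 in WT and 91.8 and 80.7 in AXBP1, and its log2 difference of -1.68 was -0.28 without WT replicate 2. Gh, growth hormone, had 115662 and 195504 in WT and 49688 and 63572 in AXBP1 (log2 difference -1.46, DESeq2 adjusted p = 0.213). Gh is a product of the anterior lobe, and the 9 other markers of that lobe summed to 1221 and 997 CPM in WT and to 957 and 632 in AXBP1. The part of carried-over anterior lobe in these values was not tested.

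The named genes that were higher included a glutamate receptor, potassium channels and a cadherin. Grm8, a metabotropic glutamate receptor (chromosome 6, 27275119 to 28135178), stood at 209.5 and 158 normalized counts in WT and at 349 and 389.7 in AXBP1. Both AXBP1 libraries were above both WT libraries, with a 2.01-fold higher mean (log2 difference 1.00, SE 0.165, edgeR adjusted p = 0.187, DESeq2 adjusted p = 0.00140), and the gene overlaps another on its strand. Rgs8, a regulator of G-protein signalling, had 150.3 and 174 in WT and 394 and 292 in AXBP1 (log2 difference 1.08, DESeq2 adjusted p = 0.00103), and overlaps a gene on the opposite strand.

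Kcnn3, a calcium-activated potassium channel, stood at 876 and 894 normalized counts in WT and at 1603 and 1351 in AXBP1 (log2 difference 0.74, SE 0.113, DESeq2 adjusted p = 6.40e-05). Cdh10, a cadherin, had close replicates, with 845 and 839.7 in WT and 1399 and 1378 in AXBP1 (log2 difference 0.72, SE 0.127, DESeq2 adjusted p = 0.000741). Kcnj9, an inward rectifier, had 118 and 129.6 in WT and 237 and 201 in AXBP1 (log2 difference 0.82, DESeq2 adjusted p = 0.0496), and overlaps a gene on the opposite strand. Kndc1, Sytl2, Ddit4l, Aspa, Aplnr, Opcml, Col20a1 and Pcdh12 were higher by 0.74 to 0.90 on the log2 scale and did not pass. With 1 library left out Col20a1 and Opcml were at 0.39, Aspa at 0.45, Ddit4l and Pcdh12 at 0.48, Kndc1 at 0.50 and Sytl2 at 0.52. Aplnr, the apelin receptor, and Pcdh12 are expressed by endothelial cells, whose 10 markers were all higher in AXBP1 (median 0.44, or 0.21 without AXBP1 replicate 1), with 6 that did not overlap (22.3% of all genes) and 1, Egfl7, at an unadjusted p under 0.05 (4.29% of all genes). Their part in the higher values was not tested.

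Interferon-stimulated genes were lower in 19 of 26 (median -0.10, or -0.04 without WT replicate 1 and -0.21 without WT replicate 2), 5 at an unadjusted p under 0.05, among them Isg20 with 286 and 315 normalized counts in WT and 200.4 and 179 in AXBP1 (log2 difference -0.66, DESeq2 adjusted p = 0.142). Of 12 abundant noncoding RNAs 7 were lower (median -0.04, positive under scaling by total counts and without WT replicate 2), and Rpph1 was the 1 at that level, with overlapping groups.

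The AXBP1 transgene was measured again by ACreb3l2/AXBP1 against ACreb3l2, which shares no library with the comparison above. Here too edgeR called 0 genes (lowest adjusted p 0.0677) and DESeq2 41, with 641 lower (4.11%) and 471 higher (3.02%) at an unadjusted p under 0.05. Of the 885 genes that were lower in AXBP1 against WT at that level, 780 (88.1%) were lower here, with a median log2 difference of -0.18, and 244 were lower at an unadjusted p under 0.05 against 1 that was higher. Of the 669 that were higher, 532 (79.5%) were higher here, with a median of 0.13, and 89 at that level against 4 that were lower. Of all tested genes 49.9% were lower here, and 67.3% had the same direction in both comparisons. Cell type markers shifted here too. Melanotrope markers were lower in 7 of 7 (median -0.41, 4 at that level). Endothelial markers were higher in 10 of 10 (median 0.53, 5 at that level) and fibroblast and pericyte markers in 10 of 10 (median 0.39, 0 at that level). Pituicyte markers were higher in 6 of 10 and macrophage markers lower in 10 of 10. The part of these markers' cells in the agreement was not tested. Of the 60 genes that passed DESeq2 as lower, 56 were lower, and of the 19 that passed as higher, 16 were higher. The higher genes include the ribosomal RNA loci and Lars2. Rn18s-rs5 had 138234 and 266681 normalized counts in ACreb3l2 and 528053 and 351630 in ACreb3l2/AXBP1. Gm42418 had 23649 and 33601 and then 76084 and 106356, and Lars2 had 1637 and 2809 and then 6030 and 6506. The part of such a difference between libraries in the agreement was not tested.

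Grm8 had 138 and 159.7 normalized counts in ACreb3l2 and 402 and 433 in ACreb3l2/AXBP1, the lowest p of that comparison (log2 difference 1.49, SE 0.166, edgeR adjusted p = 0.0677). Dnajb9 had 3099 and 3429 in ACreb3l2 and 2482 and 2354 in ACreb3l2/AXBP1, a difference of -0.43 that is close to the -0.40 against WT. Atf4 had 4428 and 4074 and then 3461 and 2816, a difference of -0.44, and Trib3 and Chac1 differed by -0.59 and -0.84. Magt1 differed by -0.28 and Serp1 by -0.10. Of the 12 named genes with the largest lower values against WT, 9 were lower here, and 3 had the opposite sign: Nr4a1 at 0.14, Gh at 0.21 and Hapln4 at 0.12. All 12 with the largest higher values, Lars2 among them, were higher here.

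Several amino acid genes were already low in ACreb3l2. Aldh1l2 had 106 and 76.4 normalized counts in ACreb3l2 and 93.8 and 88.6 in ACreb3l2/AXBP1 (log2 difference -0.02), and Sesn2, Shmt2 and Ddit3 differed by -0.06, -0.13 and -0.06. Over the 14 genes of the ATF4 arm the median was -0.11, with 4 lower at an unadjusted p under 0.05, and over the 8 ER and ER-to-Golgi lists it was -0.09, with 20 lower and 1 higher. For chaperones it was -0.18. For N-linked glycosylation, COPII and COPI it was -0.03, -0.04 and -0.02, with 25 of 37, 9 of 16 and 5 of 9 genes lower. Some lists outside these had medians as low or lower. POMC processing and granule cargo had -0.28 (17 of 18 lower) and interferon-stimulated genes -0.29 (21 of 26). Regulated exocytosis had -0.18 (19 of 25) and lysosomal genes -0.12 (27 of 30). The interaction, which tests whether the AXBP1 difference depends on ACreb3l2, gave 0 genes at an adjusted p under 0.05 in edgeR and 4 in DESeq2, with 386 at an unadjusted p under 0.05, so edgeR showed none of these unequal values to differ. The 4 of DESeq2 were Lcn2, at -1.004 against WT and -0.15 here (DESeq2 adjusted p = 0.0479), and Rps26-ps1, Gm3375 and Rprl3, named after their values were seen. For Aldh1l2 the interaction was 1.38 (DESeq2 adjusted p = 0.0732), for Sesn2 0.86, for Shmt2 0.56 and for Ddit3 0.53. Their unadjusted p in edgeR was 0.000548, 0.00568, 0.00249 and 0.00545, and the edgeR adjusted p of each was 0.9997.

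The direct comparison of ACreb3l2 with AXBP1 asked where the 2 dominant negative proteins part. edgeR called 106 genes lower in ACreb3l2 (0.680%) and 6 higher (0.0385%). Of the 106, 13 were among the 181 ER and ER-to-Golgi genes, and 10 of these were of the transport coats and cargo receptors. Copz2, a COPI subunit, stood at 1834 and 2461 normalized counts in WT, 1741 and 1671 in AXBP1 and 725 and 711 in ACreb3l2 (log2 difference ACreb3l2 minus AXBP1 -1.25, edgeR adjusted p = 0.00262). Kdelr2, the receptor that returns ER proteins, had 8705 and 8592 in AXBP1 and 4686 and 4792 in ACreb3l2 (-0.87, edgeR adjusted p = 0.00709), and Sec24d, a COPII cargo adaptor, 3966 and 3826 against 2224 and 2212 (-0.81, edgeR adjusted p = 0.0103).

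Among amino acid enzymes Aldh1l2 and Pycr1 were called, and both were higher in AXBP1. Pycr1, which makes proline, stood at 595 and 1011 normalized counts in WT, 611 and 548 in AXBP1 and 107 and 125 in ACreb3l2 (-2.32, edgeR adjusted p = 0.0217). Eif2ak3, at 1907 and 2021 in ACreb3l2, was called as well (-0.53, edgeR adjusted p = 0.0266). For Atf4, Trib3, Asns and Shmt2 the difference between ACreb3l2 and AXBP1 lay between -0.12 and 0.09 and was not called, which does not show that these genes responded alike.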

How the data were processed

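RNA was prepared from 8 pools of lobes, 2 for each of 4 groups, and sequenced. The authors trimmed reads with Trimmomatic, aligned them to mm10 with TopHat and deposited raw counts per gene made with HTSeq. A second deposited table holds FPKM values, which the authors computed per gene, with Cufflinks among the tools they name. The submitters' processing notes name DESeq for the authors' own comparisons. The strand setting of the counting and the annotation release are not given in the sources used here. Groups came from the sample labels.

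Genes with a mean of more than 20 scaled counts over the 8 libraries were kept (15580, holding 99.9% of counts) and fitted with edgeR 4.0.16 (R 4.3.3) by the quasi-likelihood test, with TMM scaling, all 4 groups in 1 model, no block, and Benjamini-Hochberg adjustment over all tested genes. Fold changes are log2 with SE. Normalized counts are counts divided by the scaled library size and multiplied by its mean. DESeq2 1.42.0, other scalings, no filter, a replicate block, each library left out and limma 3.58.1 on log2(FPKM + 1) or log2(FPKM + 0.1) were alternatives. The scripts were tested on simulated data.

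Values are relative within a library, so a difference in RNA per lobe is not seen. With 2 libraries a group, no permutation of single values can reach a p under 0.05, so none was run. Same-numbered WT and AXBP1 libraries deviated together with a correlation of 0.0099. Total counts per library were 28256086 to 37988912 over the series. The 2 WT libraries had a correlation of log2 counts of 0.989 and the 2 AXBP1 libraries of 0.994, across genes, which are not independent replicates. Counts of replicates differed beyond sampling noise, at a chi-square per degree of freedom of 48.5 and 10.7, so none was a library deposited again. The groups, the gene lists and the choice of genes to name were made with earlier results of these data known. Genes named were, among protein-coding genes with a mean of 100 or more normalized counts, groups apart, an unadjusted p under 0.05 and 1 direction in every fit that left out a library, the 12 with the largest differences each way and the 10 with the lowest p, besides the 4 members of each list with the lowest p and members whose role orders the account. Ribosomal RNA loci, the genes outside protein coding that passed DESeq2 as higher, and CARE motifs were added after their values were seen. Promoters are RefSeq windows of GRCm38.p6 of 250 bases, found for 142 of 181 ER genes. Genes said to overlap share positions with another gene in the annotation, and reads between them may be split.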

Additional observations from a re-analysis of the deposited data

How the results depend on the processing

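In the comparison of AXBP1 with WT, edgeR called 0 genes. Without the filter on low counts it called 628 of 29547, and with DESeq2 79, with the compared groups alone 2, with a replicate block 3, and with limma on FPKM 10 at either pseudocount. Leaving out 1 library gave 0 to 9 calls, the 9 without WT replicate 1. The count at an unadjusted p under 0.05, 1554, was 2778 without the filter, 3517 and 3550 on FPKM with pseudocounts of 1 and 0.1, and 529 to 2520 with 1 library left out, namely 529 without AXBP1 replicate 1, 978 without AXBP1 replicate 2, 892 without WT replicate 2 and 2520 without WT replicate 1. On FPKM the median of all genes was -0.14, with 3449 genes lower and 68 higher at that level, and the median of the 8 ER and ER-to-Golgi lists together was -0.30 and -0.32 at the 2 pseudocounts. Same-numbered libraries do not pair by their deviations, so the block shares only a number.

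For ACreb3l2/AXBP1 against ACreb3l2 the 0 calls became 513 without the filter, 41 with DESeq2, 2 and 3 on FPKM, and 0 to 11 with 1 library left out. For ACreb3l2 against AXBP1 the 112 calls became 730 without the filter, 260 with DESeq2, 26 and 29 on FPKM, and 18 to 152 with 1 library left out. For the interaction the 0 calls became 126 without the filter, 4 with DESeq2, 4 and 3 on FPKM, and 0 to 2 with 1 library left out. The causes were not tested. No call changed direction. Of the genes named in the report, Xbp1 and Eif2ak3 turned sign when 1 library was left out. Trib3 was called in 7 alternatives, Atf4, Asns and Lcn2 in 6 and Shmt2 in 4.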
